A study of Sus scrofa with 6 samples.

Results

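The chaperonin genes described here are the 8 genes for the subunits of the cytosolic chaperonin CCT (TCP1, CCT2, CCT3, CCT4, CCT5, CCT6A, CCT7 and CCT8) and the 2 genes for the mitochondrial chaperonin, HSPD1 and HSPE1. They were chosen by gene symbol from the 18007 genes of an RNA-seq table. The table names 9 of the 10, and CCT6A is the row without a symbol that the table annotates as subunit zeta of the complex and that lies on the RefSeq gene CCT6A. RNA-seq had been run on 3 lines of porcine embryonic fibroblasts (PEF5, PEF7 and PEF8), before reprogramming, from ear tips of embryonic day 90 fetuses of a Large White boar and a Meishan sow. The other 3 libraries came from the porcine induced pluripotent stem cells made from them (piPSC5, piPSC7 and piPSC8), which carried doxycycline-dependent Oct4, Sox2, Klf4 and cMyc on lentiviral vectors and had been picked as colonies onto mouse feeder cells. How many colonies went into a line is not given in the sources used here, and fragments from mouse feeder cells cannot be told apart in this table.

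A chaperonin is a barrel in which a newly made protein folds out of contact with others. CCT is built of a pair of stacked rings, each holding 1 copy of all 8 subunits, and actin and tubulin are its best known clients. HSPD1, also called HSP60, forms the barrel of the mitochondrial matrix, and HSPE1, or HSP10, is the lid that closes it. Both are made in the cytosol and imported. HSPD1 and HSPE1 are classical heat shock genes, and cells that grow and divide fast are known to hold much chaperonin.

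HSPD1 and HSPE1 lie head to head on chromosome 15 of Sscrofa11.1, with 520 bases between their RefSeq starts. By these starts a single stretch of DNA precedes both. In the table's own gene models the rows are 97 bases apart, since both rows begin inside that stretch. Part of the stretch is printed from the RefSeq copy of Sscrofa11.1, plus strand, chr15:101373710-101374009, with the heat shock element letters and an E box in capitals. It is shown because the largest changes among the 10 genes were found in the genes on its sides.
HSPD1-HSPE1 shared region: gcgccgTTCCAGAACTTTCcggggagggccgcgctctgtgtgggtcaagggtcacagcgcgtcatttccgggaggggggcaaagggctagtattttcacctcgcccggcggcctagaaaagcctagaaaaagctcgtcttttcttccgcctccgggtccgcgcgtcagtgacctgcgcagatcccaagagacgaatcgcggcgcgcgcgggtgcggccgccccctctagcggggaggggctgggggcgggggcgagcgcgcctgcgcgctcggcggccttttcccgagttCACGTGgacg
The first capitals hold TTCCAGAA and, overlapping it, GAACTTTC, and the last are CACGTG. In the table's own gene models the first lie within the HSPD1 row and the last within the HSPE1 row. Upstream runs of TCP1 and CCT5, which hold the heat shock letters close to the start, and of CCT4, whose window held none of the motifs searched, are given for comparison. Each is the 100 bases before the RefSeq start, on the gene's strand, at chr1:7590040-7590139 (plus), chr16:72223203-72223302 (minus) and chr3:79924238-79924337 (plus), with only the heat shock letters in capitals.
TCP1: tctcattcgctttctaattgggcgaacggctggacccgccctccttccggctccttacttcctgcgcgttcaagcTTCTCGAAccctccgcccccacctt
CCT5: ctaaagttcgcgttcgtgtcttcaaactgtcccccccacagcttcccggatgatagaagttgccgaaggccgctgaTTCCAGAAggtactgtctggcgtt
CCT4: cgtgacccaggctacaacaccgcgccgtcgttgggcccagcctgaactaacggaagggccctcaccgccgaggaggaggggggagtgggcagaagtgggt

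The letters GAANNTTC or TTCNNGAA are a pair of the units that make up heat shock elements. They were searched on both strands from 250 bases before to 50 bases after the RefSeq start. They were found in 4 of 9 windows, those of TCP1, CCT5, CCT6A and HSPD1, against 12.3% of 19556 gene starts. In TCP1 the nearest match began 25 bases before the start and in CCT5 24 bases before it, while the match of CCT6A began 26 bases after the start. GGGCGG was found in 7 of 9 windows (50.6% of all starts), CCAAT in 3 (35.4%), CCGGAAG in 2 (11%), CACGTG in 1 (7.92%) and the NRF1 motif in 0 (1.12%). The RefSeq model of CCT7 holds coding sequence only, so its start was not used. The windows of HSPD1 and HSPE1 face each other within 1 region, and these matches are a description of letters, not of bound sites.

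Depth and sample identity were checked first. The library totals recovered from the FPKM values (fragments per kilobase of gene per 1000000 fragments) lay between 15146576 and 17836510 fragments in PEF libraries and between 11010629 and 15050204 in piPSC libraries. The rows of the table held 98.9% to 99.3% of these totals, and a chaperonin gene was covered by 870 to 27063 fragments in any library. Fragments of the Y-linked gene DDX3Y were found in line 8 (3439 in PEF8 and 4207 in piPSC8) and in neither library of lines 5 and 7, although the study describes all 3 lines as male, so values are given by line. The 12 fibroblast markers summed to 4761 to 6726 FPKM in PEFs and to 147 to 259 FPKM in piPSCs, and 11 of them fell. Of 12 pluripotent cell markers 8 were analysed, with summed values of 0.144 to 0.202 FPKM in PEFs and 2.96 to 9.16 FPKM in piPSCs. SOX2 (3.01, 2.49 and 0.129 FPKM) and LIN28B (2.51, 0.281 and 8.9 FPKM) made up most of it in piPSC5, piPSC7 and piPSC8, while NANOG, SALL4, ESRRB, ZFP42, EPCAM and CDH1 each averaged under 0.5 FPKM. Of the 8 only SOX2 and LIN28B were tested, and neither was called higher (adjusted p = 0.0626 and 0.0667 in limma). POU5F1, LIN28A, TDGF1 and PRDM14 were not analysed here, and neither were the study's stainings of the piPSC lines for alkaline phosphatase and Oct4, so the name pluripotent is used as the labels give it. Markers of other cells had sums of at most 9.09 FPKM for keratinocytes, 2.59 FPKM for endothelium, 3.03 FPKM for leukocytes (2 of 4 analysed) and 4.54 FPKM for cartilage. The keratinocyte sum was 3.04, 3.27 and 3.35 FPKM in PEF5, PEF7 and PEF8. It was 5.28, 9.09 and 4.74 FPKM in piPSC5, piPSC7 and piPSC8, with KRT10 called higher (log2 fold change 0.59). SOX9 of the cartilage list was called lower (log2 fold change -1.51).

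All 10 chaperonin genes were higher in piPSCs than in PEFs, the CCT genes with 2.33 to 4.07 times the PEF mean FPKM and the mitochondrial pair with 6.98 (HSPD1) and 6.04 (HSPE1) times. On the log2(FPKM + 1) scale the differences ran from 1.22 (CCT3) to 2.77 (HSPD1), with a median of 1.60 over the 8 CCT genes and of 2.68 over HSPD1 and HSPE1, against 0.20 over all 12428 genes tested. In the limma fit 10 of 10 passed an adjusted p of 0.05, where 30.3% of all tested genes were called higher and 21.5% lower. All 10 also passed with a 2-fold threshold, as did 20.2% of tested genes in this direction and 16.7% in the other. For each of the 10 the lowest piPSC value lay above the highest PEF value, as it did for 37.3% of tested genes, while 26.8% had every piPSC value below every PEF value. In bulk samples, more cells of a type and more RNA per cell cannot be told apart. An exact permutation test of 3 libraries against 3 cannot give a p below 0.1, so none is given for single genes.

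**Figure D1:**
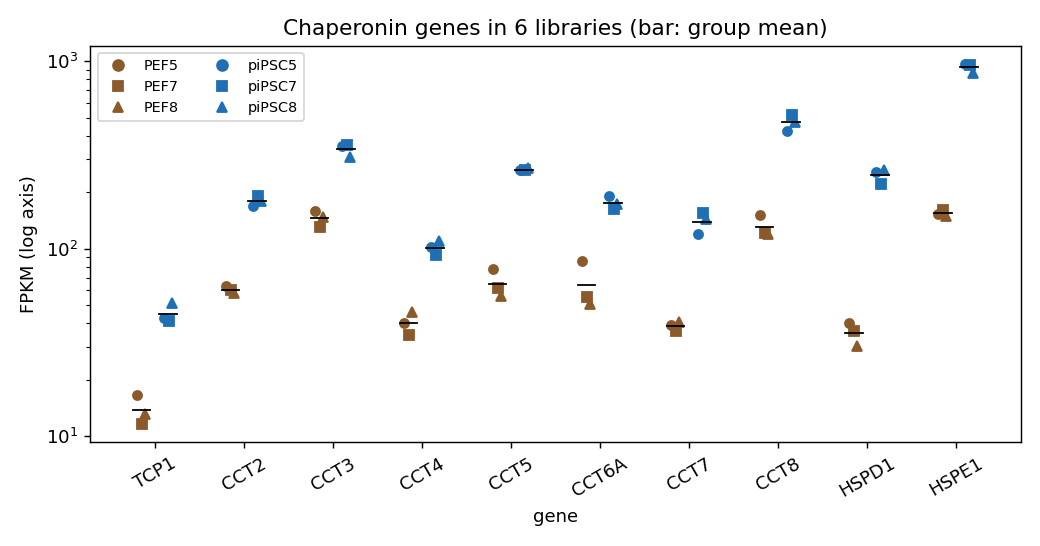
FPKM (log axis) of the 10 chaperonin genes in the 3 PEF (brown) and 3 piPSC (blue) libraries, with circles for line 5, squares for line 7, triangles for line 8 and bars for group means. For each gene the blue points lie above all brown points, and HSPE1 reaches 867 to 966 FPKM in piPSCs.

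HSPD1 (ENSSSCG00000016077, chr15:101321360-101373878, minus strand in the table's Sscrofa11.1 gene model), the mitochondrial barrel subunit, changed most. Its FPKM was 39.9, 36.2 and 30.2 in PEF5, PEF7 and PEF8 and 256, 222 and 264 in piPSC5, piPSC7 and piPSC8. The lowest piPSC library was thus far above the highest PEF library, and line 8 held both the lowest PEF and the highest piPSC value. The mean rose from 35.4 ± 4.94 to 247 ± 22.6 (SD, n = 3), a log2 change of 2.77 ± 0.16 (SE, limma, adjusted p = 0.000176), which ranked 179 among the increases of 12428 genes. The row spans 52519 bases against 13144 bases in RefSeq and overlaps SF3B1 on the same strand (39.1 FPKM in PEFs and 75.3 FPKM in piPSCs) and COQ10B (18.1 and 10.2 FPKM), and how fragments shared by rows were counted is not given in the sources used here.

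HSPE1 (ENSSSCG00000016078, chr15:101373976-101376144, plus strand), the lid, stood at 153, 160.2 and 149 FPKM in PEF5, PEF7 and PEF8 and at 966, 959 and 867 FPKM in piPSC5, piPSC7 and piPSC8. Both groups were tight, with coefficients of variation of 3.76% and 5.98%, and did not overlap. The log2 change was 2.59 ± 0.14 (SE, limma, adjusted p = 0.000145), and no other row of the table overlaps this gene. HSPE1 was the most abundant of the 10 messages per length in piPSCs. By mean it was so in PEFs too (154 FPKM, against 146 FPKM for CCT3), though the PEF libraries of HSPE1 and CCT3 overlapped.

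The lid and barrel messages both rose, and their ratio was compared within libraries because their products act together. HSPE1 exceeded HSPD1 by 3.83, 4.42 and 4.93 times in FPKM in PEF5, PEF7 and PEF8 and by 3.77, 4.33 and 3.28 times in piPSC5, piPSC7 and piPSC8. The ratio was lower in the piPSC line than in its own PEF line in 3 of 3 lines, by little in lines 5 and 7 and most in line 8. The groups overlapped, with means of 4.4 ± 0.55 in PEFs and 3.79 ± 0.524 in piPSCs (SD, n = 3), and 3 libraries against 3 are too few to show whether the ratio changed. The size of the ratio depends on gene length, since the table's FPKM used 7020 bases for HSPD1 and 612 bases for HSPE1. Per RefSeq coding length (1722 and 309 bases) the mean level of HSPE1 was 2.11 times that of HSPD1 in PEFs and 1.83 times in piPSCs.

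The mitochondrial genes stood higher relative to CCT in piPSCs. HSPD1 had 0.506, 0.567 and 0.454 times the mean FPKM of the 8 CCT genes in PEF5, PEF7 and PEF8, and 1.23, 1 and 1.24 times in piPSC5, piPSC7 and piPSC8. HSPE1 had 1.94, 2.51 and 2.24 times that mean in PEFs and 4.63, 4.33 and 4.07 times in piPSCs. Neither ratio overlapped between the groups, and the difference was given no test.

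**Figure D2:**
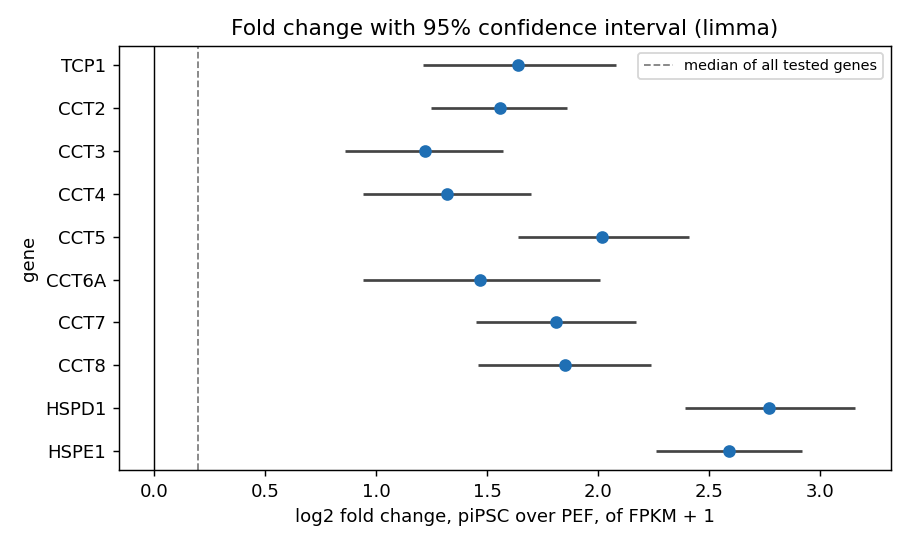
Log2 fold change of FPKM + 1, piPSC over PEF, for each chaperonin gene (dot) with its 95% confidence interval from limma (line), beside the median of all 12428 tested genes at 0.20 (dashed). All intervals lie above the dashed line, from 0.86 at the lower end of CCT3 to 3.16 at the upper end of HSPD1.

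Of the CCT subunits, whose positions are given from the same gene models, CCT5 (epsilon, ENSSSCG00000024126, chr16:72210296-72223131, minus strand) rose most. It was read at 77.4, 61.8 and 55.8 FPKM in PEF5, PEF7 and PEF8 and at 264, 261 and 268 FPKM in piPSC5, piPSC7 and piPSC8. The piPSC libraries differed by a coefficient of variation of 1.25%, against 17.1% in PEFs. The log2 change was 2.02 ± 0.16 (SE, limma, adjusted p = 0.000343). Heat shock letters were found in the windows of CCT5, TCP1 and CCT6A but not in that of CCT8. A link to the size of the rise was not tested.

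CCT8 (theta, ENSSSCG00000026761, chr13:192407979-192423368, minus strand) and CCT7 (eta, ENSSSCG00000008303, chr3:69522759-69547387, minus strand) followed. CCT8 was at 151, 121 and 119 FPKM in the PEF libraries of lines 5, 7 and 8 and at 426, 514 and 474 FPKM in the piPSC libraries, a log2 change of 1.85 ± 0.16 (SE, limma, adjusted p = 0.000435). CCT7 went from 39.2, 36.2 and 40.6 FPKM to 119, 155 and 143 FPKM, a log2 change of 1.81 ± 0.15 (SE, limma, adjusted p = 0.000405). In both genes line 5 gave the lowest piPSC value and line 7 the highest, and neither gene's groups overlapped. CCT7 overlaps only FBXO41, which held a mean of 5 fragments in each group.

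TCP1 (alpha, ENSSSCG00000004048, chr1:7590140-7601795, plus strand), the subunit for which the complex was first named, had the lowest level of the 8. Its FPKM was 16.6, 11.6 and 13.1 in the PEF libraries and 42.4, 41 and 51 in the piPSC libraries, with a log2 change of 1.64 ± 0.18 (SE, limma, adjusted p = 0.00087). TCP1 shares part of its span with ACAT2 on the opposite strand, which averaged 25.2 FPKM in PEFs and 23.1 FPKM in piPSCs (log2 fold change -0.05, limma adjusted p = 0.895). Whether the counting used strand is not given in the sources used here.

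CCT2 (beta, ENSSSCG00000000496, chr5:33858639-33875661, plus strand) varied least among PEFs of the 8 CCT genes, at 62.9, 59.9 and 57.7 FPKM, and was at 169.7, 189.8 and 179 FPKM in piPSC5, piPSC7 and piPSC8. Its log2 change was 1.56 ± 0.13 (SE, limma, adjusted p = 0.000377). CCT6A (zeta, ENSSSCG00000020808, chr3:16843420-16858699, minus strand) was at 86.3, 55.3 and 50.7 FPKM in PEFs and at 191, 163 and 172 FPKM in piPSCs. It varied most among PEFs, with PEF5 well above the other two, and had the widest error of the 10 (log2 change 1.47 ± 0.22 SE, limma, adjusted p = 0.00256).

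CCT4 (delta, ENSSSCG00000008377, chr3:79924549-79945457, plus strand) and CCT3 (gamma, ENSSSCG00000006487, chr4:93733953-93753798, plus strand) rose least. CCT4 was at 40.1, 34.4 and 46.1 FPKM in PEFs and at 102, 92.9 and 109.7 FPKM in piPSCs, a log2 change of 1.32 ± 0.16 (SE, limma, adjusted p = 0.00114). CCT3 was at 159, 130.2 and 148 FPKM in PEFs and at 354, 355 and 308 FPKM in piPSCs, a log2 change of 1.22 ± 0.15 (SE, limma, adjusted p = 0.00119). Both genes' groups were apart, and CCT3 fell short of a 2-fold change when the libraries were rescaled (log2 0.94 by the median ratio over genes and 0.90 by equal sums), both of which lower piPSC values relative to PEF values.

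The rise was present within every line. Between each piPSC line and its own PEF line the median log2 ratio of the 8 CCT genes was 1.37 in line 5, 1.69 in line 7 and 1.77 in line 8, beside medians of all tested genes of 0.21, 0.24 and 0.08. For HSPD1 and HSPE1 the same medians were 2.65, 2.58 and 2.81. All 10 genes were at least 2-fold higher in all 3 lines, which 12.8% of tested genes were, and the smallest of the 30 ratios was 1.06, for CCT3 in line 8. PEF5 held the highest PEF value for 6 of the 8 CCT genes and the lowest for 0, and line 5 gave the smallest ratio for 6 of them, the exceptions being CCT3 and CCT4. Each ratio sets 1 library against 1 and has no replicate.

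**Figure D3:**
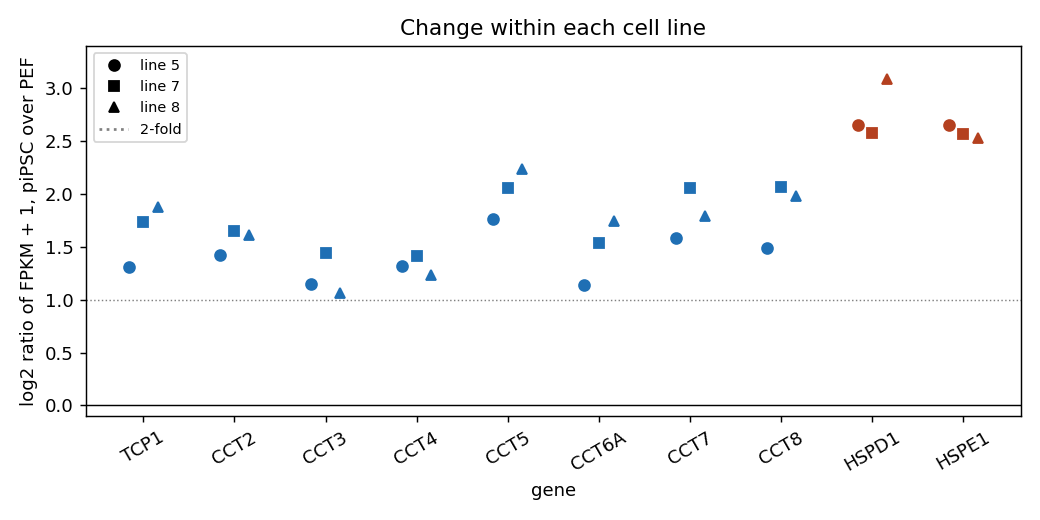
Log2 ratio of FPKM + 1 of each piPSC line over its own PEF line for the CCT genes (blue) and HSPD1 and HSPE1 (red), with circles for line 5, squares for line 7, triangles for line 8 and a dotted line at a 2-fold ratio. No point lies below the dotted line, and the red points lie between 2.53 and 3.09.

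As a whole the 8 CCT messages held 0.161% to 0.195% of all fragments in PEFs and 0.522% to 0.555% in piPSCs. HSPD1 and HSPE1 held 0.0303% to 0.0374% in PEFs and 0.214% to 0.239% in piPSCs. The summed FPKM of the CCT genes was 632, 511 and 531 in PEF5, PEF7 and PEF8 and 1668, 1771 and 1705 in piPSC5, piPSC7 and piPSC8. The 10 genes were also even among replicates, with a median coefficient of variation of 13.7% in PEFs and 8.26% in piPSCs, where the 1993 other genes with a mean at or above that of TCP1 had medians of 18.5% and 16%. In 7 of the 10 the variation was lower in piPSCs.

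A ring takes the subunits in equal number, but their messages were not equal per length. In PEFs the order by FPKM was CCT3, CCT8, CCT5, CCT6A, CCT2, CCT4, CCT7 and TCP1, and the highest mean was 10.6 times the lowest. Neighbours in that order whose PEF libraries overlapped were CCT3 with CCT8, CCT5 with CCT6A, CCT6A with CCT2, and CCT4 with CCT7. In piPSCs CCT8 led, followed by CCT3, CCT5, CCT2, CCT6A, CCT7, CCT4 and TCP1, and only CCT2 and CCT6A overlapped among neighbours. The order rests on the gene lengths behind the FPKM, which ran from 1650 bases for CCT8 to 7026 bases for CCT7, while the RefSeq coding lengths of the 8 lie between 1596 and 1701 bases. Per coding length CCT7 moved to the second place in PEFs and the first in piPSCs, TCP1 stayed last, and the range shrank to 5.93 times in PEFs and 5 times in piPSCs.

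For 3 CCT subunits the shares of the summed FPKM did not overlap between the groups. The shares of a library add up to the whole, so a lower share of one subunit raises those of others. CCT3 held 25.1%, 25.5% and 27.8% in PEF5, PEF7 and PEF8 and 21.2%, 20% and 18.1% in piPSC5, piPSC7 and piPSC8. CCT5 held 12.2%, 12.1% and 10.5% in PEFs and 15.8%, 14.8% and 15.7% in piPSCs. CCT8 held 23.8%, 23.7% and 22.5% in PEFs and 25.5%, 29% and 27.8% in piPSCs. These are the genes with the smallest and the 2 largest fold changes of the 8, and the shares were not tested. The shares of TCP1, CCT2, CCT4, CCT6A and CCT7 overlapped between the groups, and per coding length CCT4 also parted, from a mean of 11.6% in PEFs to 9.48% in piPSCs.

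**Figure D4:**
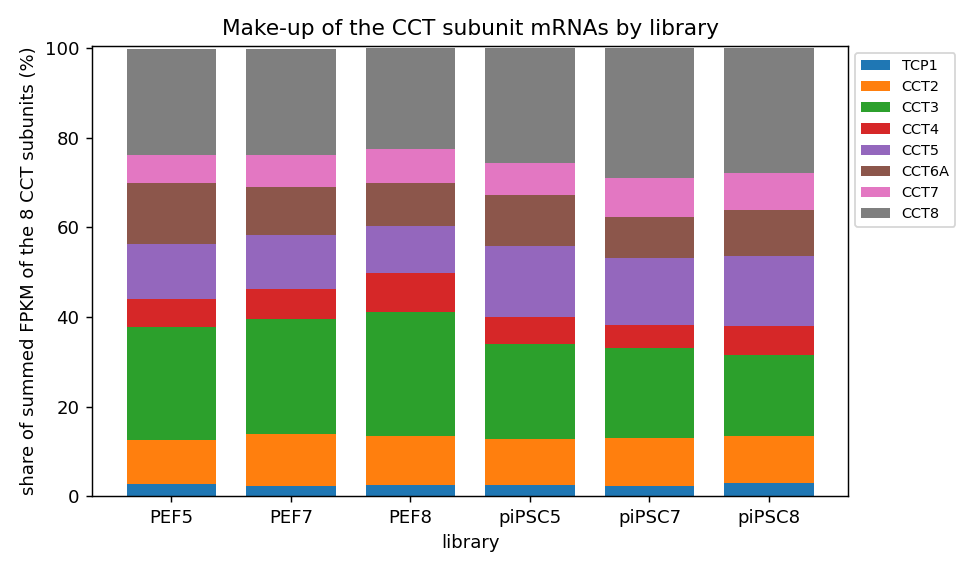
Stacked shares (%) of the 8 CCT genes in their summed FPKM for each of the 6 libraries, starting at 0, with 1 colour per gene. CCT3 (green) is narrower in the piPSC bars, at 18.1% to 21.2%, than in the PEF bars, and CCT5 (purple) and CCT8 (grey) are wider.

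Over the 6 libraries the CCT genes varied alike, with Pearson correlations of log2(FPKM + 1) between 0.926 and 0.997 over 28 pairs, which mostly carry the difference between the groups. After the group means were taken off, the correlation with the mean of the 8 ran from 0.232 (CCT4) to 0.874 (TCP1) among the CCT genes, each of which is part of that mean, and was 0.479 for HSPD1 and -0.314 for HSPE1. The 5 genes outside the list most like the CCT mean over 6 libraries were DENND5B (r = 0.9994), ZMYM6 (0.9994), SERBP1 (0.9985), AHCY (0.9982) and FAM60A (0.9982). SERBP1, an mRNA-binding protein of the ribosome, went from 62.1 to 74 FPKM in PEFs to 246 to 259 FPKM in piPSCs. An r above 0.99 was reached by 230 genes (1.85% of those tested), and the points share their libraries and depth.

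Of 121 related genes in 10 further lists (folding helpers, CCT clients, mitochondrial import and proteases, and regulators), 103 were tested. In the main fit 52 were higher and 14 lower, where 30.3% of all tested genes were higher and 21.5% lower. With equal sums 43 were higher and 22 lower, and the shares over all genes are not given for that setting. Genes of the prefoldin and cofactor lists moved in part with CCT. Prefoldin carries unfolded actin and tubulin to the ring, and its list also held the prefoldin-like genes URI1, UXT and PDRG1. Of 6 tested members of that list 4 were higher and 0 lower in limma (1 lower at an unadjusted p under 0.05, 0 with voom and 1 after either rescaling). Among the prefoldin subunits VBP1 and PFDN4 were higher and PFDN1 was not called (log2 fold change -0.34). Of the prefoldin-like genes URI1 and UXT were higher. UXT was at 3.52, 4 and 3.43 FPKM in PEFs and at 10.3, 14 and 9.69 FPKM in piPSCs (log2 fold change 1.39, limma adjusted p = 0.00201), and VBP1 rose by 1.23 on the log2 scale (adjusted p = 0.00138 in limma). PFDN2 and PFDN6 are listed at or near 0 in all libraries, which leaves them outside the test. Of the 4 CCT cofactors, PDCD5 (log2 fold change 1.19) and TXNDC9 (0.88) were higher and the phosducin-like genes PDCL and PDCL3 did not pass. Of the 4 tested chaperonin-like genes only MKKS, one of the Bardet-Biedl syndrome chaperonins, was higher, at a log2 fold change of 1.11.

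Genes for actin and tubulin, the chief clients of CCT, differed in direction among themselves. Of 8 tested 3 were lower (5 without piPSC7) and 1 higher, with a median log2 fold change of -0.64, beside 21.5% lower and 30.3% higher over all tested genes. The list held 13 genes, of which TUBA1A, TUBA1C, TUBB2A and TUBB4B were not analysed here and TUBA4A was too low to be tested. ACTB, the cytoplasmic beta actin, was at 889.8, 658 and 963 FPKM in PEF5, PEF7 and PEF8 and at 306, 251 and 293 FPKM in piPSC5, piPSC7 and piPSC8, a log2 change of -1.55 ± 0.20 (SE, limma, adjusted p = 0.00138). TUBB6, a beta tubulin, was at a log2 change of -3.00, and ACTG1, gamma actin, named after its values were seen, at -0.98. ACTG1 lost its call in 4 of 15 alternatives, namely without the filter on low values and without PEF5, piPSC5 or piPSC8. TUBB was at a log2 change of 0.95 (limma, adjusted p = 0.0333) and lost that call in 7 of 15 alternatives, among them both rescalings and leaving out PEF5, PEF7, piPSC7 or piPSC8. Of 10 other CCT clients tested, 3 were higher, which is about the 30.3% of all tested genes, and 0 lower in limma. At an unadjusted p under 0.05 there was 1 lower and with voom 0, while 1 was lower without piPSC7, with a pseudocount of 0.1, without the filter on low values or with the median ratio, and 2 with equal sums. The higher ones were PLK1, a mitotic kinase, at a log2 fold change of 3.60, CCNE1, a cyclin of the G1 to S step, at 1.23 and HDAC3, named after its values were seen, at 0.62. HDAC3 lost its call in 4 of 15 alternatives, namely both rescalings and leaving out PEF7 or piPSC5.

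Mitochondrial partners of HSPD1 and HSPE1 were mostly higher. Of 14 genes of the mitochondrial HSP70 system and proteases 12 were higher and 0 lower in limma (median log2 fold change 1.20). At an unadjusted p under 0.05 and with voom 0 were lower as well. With the median ratio or equal sums 9 of the 14 were higher. Over all tested genes 30.3% were higher and 21.5% lower in the main fit. HSPA9, the matrix HSP70 that passes proteins on to the chaperonin, was at 104, 125 and 72.4 FPKM in PEF5, PEF7 and PEF8 and at 318, 283 and 369 FPKM in piPSC5, piPSC7 and piPSC8, a log2 change of 1.71 ± 0.23 (SE, limma, adjusted p = 0.00171). CLPB, a disaggregase, and GRPEL2, a nucleotide exchange factor, had the largest increases, at 2.42 and 2.09. Of 16 tested genes of the import machinery 15 were higher and 0 lower (median 1.20). Again 0 were lower at an unadjusted p under 0.05 and with voom, and 15 stayed higher with the median ratio or equal sums. The largest increases were those of the outer membrane receptor TOMM20 at 2.80 and TIMM44 of the import motor at 2.29.

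In the cytosol 12 of 19 tested HSP70 and HSP90 genes were higher and 2 lower (median log2 fold change 0.91). Over all tested genes 30.3% were higher and 21.5% lower. HSP90AB1, the constitutive HSP90, was at 125, 111 and 87.8 FPKM in PEFs and at 681, 615 and 649 FPKM in piPSCs, a log2 change of 2.59 ± 0.17 (SE, limma, adjusted p = 0.000217). FKBP4, its co-chaperone, followed at 2.39, while the constitutive HSPA8 was at 0.91. HSPB1 (log2 fold change -2.37, limma adjusted p = 0.0213) and DNAJB1 (-0.52, limma adjusted p = 0.0277), both inducible by heat, were lower. With the line as a replicate block neither kept its call (adjusted p = 0.0508 and 0.0547 in limma), nor did HSPB1 without PEF5, PEF8 or piPSC5, or DNAJB1 without any 1 of the libraries other than PEF8. HSP90AA1, the inducible HSP90, was not analysed here.

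Of 15 chaperones of the endoplasmic reticulum 0 were higher in limma and 7 lower (median log2 fold change -0.68), and the others were not called. Over all tested genes 30.3% were higher and 21.5% lower. At an unadjusted p under 0.05, and without piPSC7, 1 of the 15 was higher, and with voom 0. HSPA5, the HSP70 of that compartment, was at 643, 530.0 and 384 FPKM in PEF5, PEF7 and PEF8 and at 174, 194 and 266 FPKM in piPSC5, piPSC7 and piPSC8, a log2 change of -1.29 ± 0.25 (SE, limma, adjusted p = 0.00671). DNAJB9, a helper of HSPA5, and SERPINH1, the collagen chaperone, were at log2 changes of -2.18 and -1.93. The collagen genes COL1A1 and COL1A2 of the fibroblast list were at -7.32 and -7.09, and their part in the result was not tested.

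Of 7 regulators 2 were higher and 2 lower, where 30.3% of all tested genes were higher and 21.5% lower. The higher ones were the heat shock factors HSF1 (2.26 FPKM in PEFs and 6.82 FPKM in piPSCs, log2 fold change 1.26, limma adjusted p = 0.00271) and HSF2 (log2 fold change 0.90, limma adjusted p = 0.0215). HSF2 was not called with the line as a replicate block (adjusted p = 0.051 in limma) or after either rescaling, nor without PEF5, PEF7 or piPSC7, and the HSF1 row overlaps 5 others. MYC was at 50.9, 58.9 and 6.95 FPKM in PEF5, PEF7 and PEF8 and at 1.42, 1.05 and 0.267 FPKM in piPSC5, piPSC7 and piPSC8 (log2 change -3.98 ± 0.78 SE, limma, adjusted p = 0.00634). The introduced cMyc comes from a vector, and its fragments need not be counted in this row. ATF5, a factor of the mitochondrial stress response, was at 9.91, 34.7 and 3.1 FPKM in PEFs and at 1.11, 2.33 and 1.51 FPKM in piPSCs (log2 fold change -2.17, limma adjusted p = 0.0454), and lost its call in 7 of 15 alternatives, among them leaving out any 1 of the libraries other than PEF8, with a log2 change of -1.36 without PEF7. ATF4, DDIT3 and NRF1 did not pass.

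**Figure D5:**
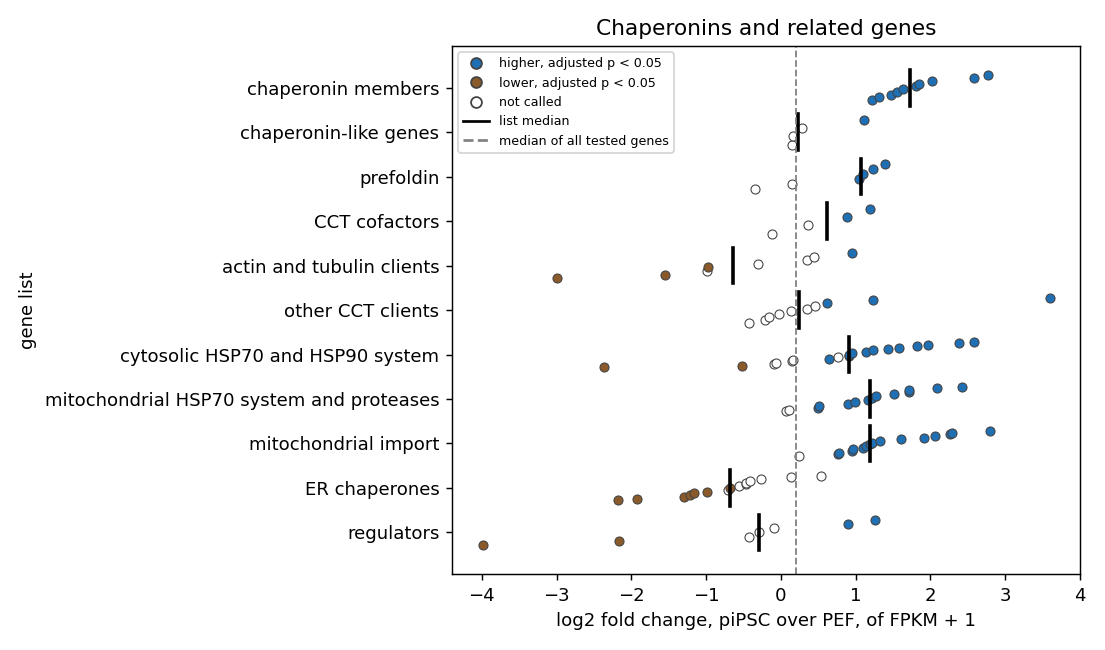
Log2 fold changes of FPKM + 1, piPSC over PEF, of the tested genes of the chaperonin list and 10 related lists, 1 dot per gene, filled blue if higher and brown if lower at an adjusted p under 0.05, with the list median (black) and the median of all tested genes at 0.20 (dashed). The chaperonin, HSP70 and HSP90, mitochondrial and import lists have medians between 0.91 and 1.73, and the endoplasmic reticulum list has one of -0.68.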

How the data were processed

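The authors deposited FPKM values per gene (fragments per kilobase of gene per 1000000 fragments) for 6 poly-A libraries of 150 bp paired-end reads. The submitters' processing notes name Sscrofa11.1, HISAT2 2.1.0, HTSeq 0.6.0 and Bowtie2 2.2.3 without roles, and the annotation release is not given in the sources used here. Of 13210 symbols shared with the RefSeq annotation of Sscrofa11.1, 99.8% lay at overlapping positions. Of 3375 rows listed by identifier only, 902 were named from an identifier table, and genes found by neither route were not analysed here.

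Values were whole multiples of 1 fragment given a gene length and a library total, and fragments were recovered for 18007 genes. Groups were compared with limma 3.58.1 in R 4.3.3 (eBayes with a trend) on log2(FPKM + 1), two-sided and without a line term, with Benjamini-Hochberg adjustment over the 12428 genes that averaged at least 0.5 FPKM, and fold changes of low genes are understated by the added 1. The study's statistics section gives an unpaired two-tailed test, while its expression profiles were compared line by line, so ratios within lines are also given. The fit and the recovery were tested on simulated data. Intervals are at 95%, and other values were computed in Python 3.11.15 with pandas 2.3.3.

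The numbers pair the libraries, because a piPSC line and the PEF line of its number share 1 animal. Deviations from group means correlated at 0.0921, 0.0946 and 0.08 for the same number and at -0.121 to 0.0553 for others. Libraries of a group are separate lines. Related genes were named by rule: in each list the 2 largest increases and the 2 largest decreases past an adjusted p of 0.05, the defining genes of a system, and the 5 genes most like the CCT mean. The members and lists were chosen with earlier results of these data known. Alternatives were the replicate block, pseudocount, filter, 3 rescalings, no trend, voom on recovered fragments and leaving out each library, and levels per coding length were added after seeing the data.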

Additional observations from a re-analysis of the deposited data

How the results depend on the processing

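All 10 chaperonin genes were called higher in each of the 15 alternatives, and with a replicate block for the line 10 were called as well. At 2-fold, 9 of 10 were called after either rescaling, which left out CCT3. Rescaling by the median ratio over genes and to equal sums moved the CCT median to 1.33 and 1.31. That of HSPD1 and HSPE1 moved to 2.41 and 2.37, and that of all tested genes from 0.20 to -0.01 and -0.06. The median ratio puts the typical gene near no change by its design. Equal sums lower piPSC values because piPSC libraries have larger FPKM sums. Equal sums also raised the related genes called lower from 14 to 22. Leaving out 1 library gave 47 to 51 related genes higher (52 with all) and 10 to 16 lower, CCT medians of 1.55 to 1.74, mitochondrial medians of 2.61 to 2.72, and a difference in the HSPE1 to HSPD1 ratio of -0.885 to -0.335 (-0.604 with all). With the replicate block 49 related genes were higher and 12 lower. Of the 10 chaperonin genes and the 29 related genes given by name and refitted with the block, HSPB1, DNAJB1 and HSF2 changed their call. MYC lost its call with voom (adjusted p = 0.0661 in limma).

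The difference in share, piPSC minus PEF, reversed for TCP1 without piPSC8 (-0.0248 points), CCT2 without PEF7 (0.0414) and CCT6A without PEF5 (0.0521). Without 1 library it ran from -0.0248 to 0.314 for TCP1, -0.844 to 0.0414 for CCT2, -7.09 to -5.5 for CCT3, -1.79 to -0.619 for CCT4, 3.26 to 4.16 for CCT5, -2.01 to 0.0521 for CCT6A, 0.72 to 1.59 for CCT7 and 3.33 to 5.07 for CCT8. By fragments in place of FPKM it was 2.46 for CCT7 (1.11 by FPKM) and 2.12 for CCT8 (4.11), and per coding length 2.51 and 2.14, since the lengths used differ between genes. Of 435 values of 29 named related genes under alternatives, 396 kept their call and direction, 39 lost the call and 0 reversed. With 3 lines a group, the spread is known only roughly, and all p-values rest on it.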

Other observations

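A row without a symbol that the table annotates as a 60 kDa heat shock protein, on chromosome 14, was looked at after its values were seen. It held 10, 6 and 14 fragments in PEF5, PEF7 and PEF8 and 3, 0 and 0 in piPSC5, piPSC7 and piPSC8, where a count of 0 allows up to 3 fragments by counting error only. The HSPD1 row held 3207 to 27063 fragments in the same libraries.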
